A study of Mus musculus with 24 samples.

Results

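Immediate early genes are transcribed within minutes of a stimulus, without new protein synthesis, and their mRNAs are degraded quickly. The 10 genes described here are Fos, Fosb, Jun, Junb, Egr1, Ier2, Ier3, Atf3, Nr4a1 and Dusp1. They were matched by symbol, and all 10 were found among the 54446 gene identifiers counted in each library. Fos, Fosb, Jun and Junb encode subunits of the AP-1 transcription factor, and Atf3 encodes a stress-induced ATF/CREB family factor that can pair with Jun proteins. Egr1 encodes a zinc finger transcription factor and Nr4a1 an orphan nuclear receptor. Ier2 and Ier3 are short genes of the early response, and Dusp1 encodes a phosphatase that switches off the MAP kinases p38 and JNK.

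In resting cells the serum response factor SRF, its ternary complex partners (the Elk proteins) and CREB hold immediate early promoters ready, and MAP kinases activate them. Many of the transcripts carry AU-rich elements, runs of the pentamer ATTTA in the 3′ UTR, which decay factors bind. N6-methyladenosine (m6A) is another mark read by decay factors: YTHDF2 binds m6A-modified mRNA and promotes its degradation. In myeloid cells, immediate early genes respond to inflammatory signals, to adhesion and to the handling of the cells. The comparisons asked how irradiation and the Ythdf2 genotype changed these transcripts, and whether an m6A antibody enriched them.

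CD11b+ myeloid cells came from MC38 tumors, tumors of a transplanted mouse colon carcinoma line. The hosts were C57BL/6J mice, male and female, aged 8 to 10 weeks. Every mouse carried floxed Ythdf2 alleles (Ythdf2 fl/fl). WT mice had no Cre, and cKO mice carried Lyz-Cre, which is expressed from the Lyz2 locus in macrophages, monocytes and granulocytes and not in every CD11b+ cell to the same extent. Tumors were not irradiated (Ctrl, given as sham treatment in the methods) or received 1 dose of 20 Gy (IR), with cells collected on day 3. The methods give 5 pooled Ythdf2 f/f mice per replicate. Input RNA and RNA bound by an antibody against m6A (IP) were sequenced from each of the 4 conditions in 3 libraries, 24 in all. Replicates are called technical in one passage of the methods and biological in another, so that p-values measure the spread between these libraries, which may be technical.

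The 12 Inputs held 65180075 to 83661576 gene counts each and the 12 IP libraries 68846321 to 86421888. Ythdf2 and Lyz2 check the labels. Whole-gene Ythdf2 counts were higher, not lower, in the cKO Inputs, at 174 to 185 CPM (counts scaled to library size) in cKO Ctrl and 95.6 to 98.1 in WT Ctrl, and all groups are named here as labelled. Lyz2, where the Cre is inserted, stood at 20100 to 21500 CPM in the WT Inputs and at 296 to 414 in the cKO Inputs. It had the same order in the Ctrl IP libraries. The IR IP libraries ran the other way: those labelled WT IR had 88.5 to 91.1 CPM, and those labelled cKO IR had 19500 to 19800. These 6 libraries are therefore named by their label only, and no genotype direction is drawn from them. All 8 myeloid markers (Itgam, Ptprc, Csf1r, Adgre1, Ly6c2, Ccr2, Lyz2, Cd68) were above 1 CPM in each Input group. Summed markers of T and NK cells (1.43 to 2.8 CPM per library), B cells (group means of 0.499 to 0.89), epithelium (5.49 to 8.1) and fibroblasts (1.25 to 3.32) were low. The endothelial list summed to 112 to 190 CPM, nearly all of it Vwf (111 to 188 CPM), and Cdh5 reached at most 0.264 CPM.

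The sequences below show where the m6A antibody signal sat over the members, and 2 genes where it was missing or nearly so. All are read 5′ to 3′ on the strand of the gene from GRCm38, the build also called mm10. The m6A consensus is a pentamer of A, G or T, then A or G, then AC, then A, C or T, and the adenosine before its C is the one that can be methylated. The capitals mark the consensus nearest to the peak summit, or, where one begins with GGAC, the nearest of those. The first 6 windows lie within 100 bases of a summit found in at least 10 of the 12 IP libraries.
Ier3, chr17:35822244-35822272, plus strand, coding sequence just before the stop codon: ctcggagtcctcGGACTatgcgctggatc
Atf3, chr1:191170632-191170660, minus strand, 3′ UTR: tcaaagggtgtaGGACTccatactcagtg
Atf3, chr1:191171530-191171558, minus strand, coding sequence: ctcagaatggacGGACAccggaagacgag
Junb, chr8:84978444-84978472, minus strand, 5′ UTR: ggcccttcagggGGACCtttcccagatcg
Jun, chr4:95050340-95050368, minus strand, coding sequence: aacatgctcaggGAACAggtggcacagct
Ier2, chr8:84662538-84662566, minus strand, coding sequence: ccgcagggctctTGACCctcgcctgcacc

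Over the sites of Jun, Junb, Ier2, Ier3 and Atf3, 8 had a summit in at least 10 libraries, and 4 of the 8 held a consensus beginning with GGAC within 100 bases. The 2 such sites of Egr1 were not searched. Over all summits, 51.9% of 52365 summit windows of 201 bases in WT Ctrl held one, and 98.1% held some form of the consensus. A match is a description of the letters and does not show that the site is methylated.

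Fos had no peak in any library, and its main transcript of 2108 bases held 4 copies of GGACT, a number that 45.3% of genes reached. That was 1.9 per kb (kilobase), a density reached by 14.2% of 13123 protein-coding genes. Any form of the consensus stood at 19.4 per kb in Fos, which 58.4% of genes reached. Egr1, which had peaks in every IP library, held 0.659 copies of GGACT per kb. Of the Fos copies shown, 1 lies in the coding sequence and the other in the 3′ UTR, 156 bases past the stop codon. The last line is from Nr4a1, at the only peak called over that gene, in 1 library.
Fos, chr12:85475070-85475098, plus strand, coding sequence: ccccatccttacGGACTccccacccagtc
Fos, chr12:85476600-85476628, plus strand, 3′ UTR: tgtgggcctcaaGGACTtgcaagcatcca
Nr4a1, chr15:101274180-101274208, plus strand, coding sequence: cctcaagttggaGGACTtggtaccccctc

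The AU-rich pentamer was common among the members. Of the 10 main transcripts all but that of Ier2 held at least 1 ATTTA in the 3′ UTR, while 66.4% of 13123 protein-coding genes held at least 1. Ier3 had the highest density, 5 copies in 613 bases or 8.16 per kb, which 1.78% of genes reached. Dusp1 followed with 5.8 per kb, then Nr4a1 with 5.52 and Fos with 4.91. The median gene had 1.22. The lines below show a stretch with 2 overlapping copies in Fos and in Dusp1, with the pentamers in capitals.
Fos, chr12:85477093-85477119, plus strand, 3′ UTR: gtttttattgtgttttcaATTTATTTA
Dusp1, chr17:26506167-26506193, minus strand, 3′ UTR: tcatgggagctggtccttATTTATTTA

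The Input level of the members spanned a wide range. Per kb of exon, Atf3 (102 ± 0.653 CPM) and Junb (99 ± 3.6) led in WT Ctrl (SD, n = 3), and they did not differ beyond their spread. Jun followed at 49.5 ± 1.67, Fos at 30 ± 0.249, Ier2 at 14.3 ± 0.335, Ier3 at 13.3 ± 0.243 and Dusp1 at 12.2 ± 0.121. Nr4a1 (2.21 ± 0.0386) and Egr1 (1.81 ± 0.101) were lower still, and each of these steps exceeded the spread between libraries. The length used is that of all annotated exons of a gene merged, 3311 bases for Dusp1, whose main transcript has 1990. The places of Dusp1, Atf3 and Junb depend on this choice of length, which the spread between libraries does not cover. The order of the first 4 was the same in the other groups, except that Junb stood above Atf3 in cKO Ctrl (106 ± 1.65 against 102 ± 0.473). Ier2, Ier3 and Dusp1 changed places between groups. Egr1 stood above Nr4a1 in the 3 groups other than WT Ctrl, at 2.56 ± 0.0969 against 2.24 ± 0.104 in cKO Ctrl, 1.44 ± 0.163 against 0.978 ± 0.0346 in WT IR and 1.43 ± 0.169 against 1.08 ± 0.0216 in cKO IR.

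Fosb was hardly counted. It had 1 to 16 counts in each Input (0.0132 to 0.234 CPM), in which one of 3 libraries held most of the counts of WT IR (16 of 22) and of cKO IR (13 of 16). It did not pass the filter of at least 10 counts in at least 3 Inputs, and a change in its Input level was not detectable at this depth. The other 9 members were tested.

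**Figure D1:**
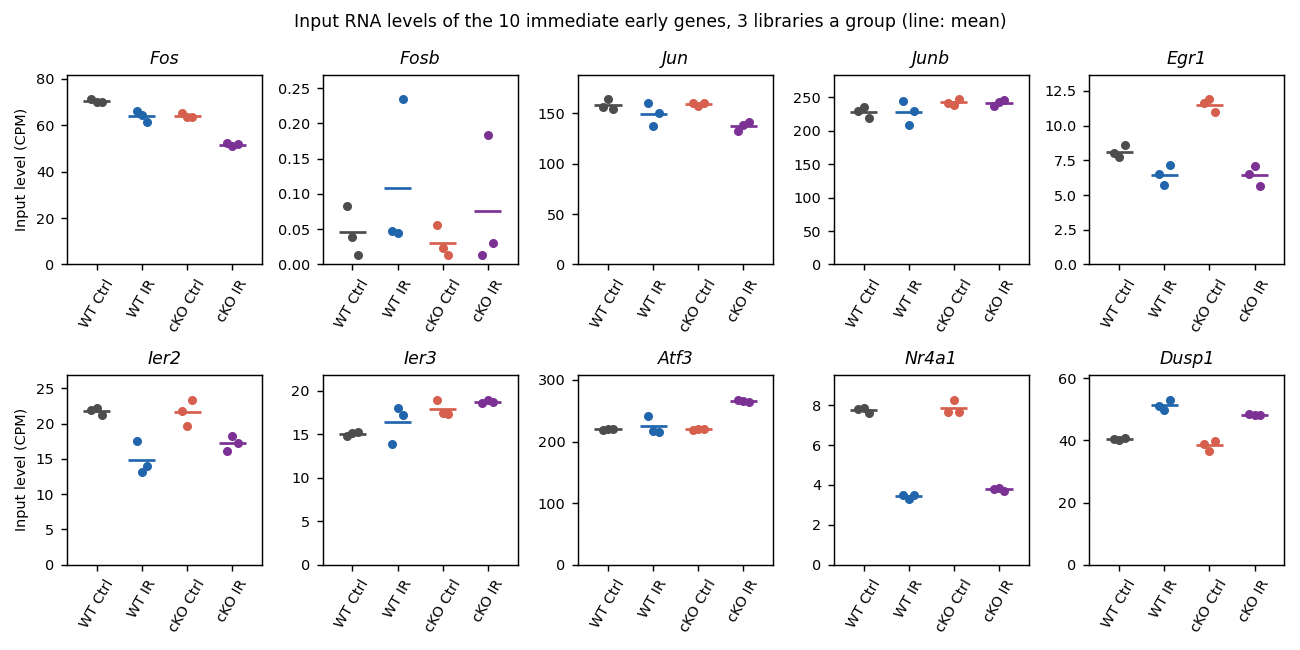
Input levels of the 10 genes in CPM (linear axes from 0), with 1 point a library and a line at the mean of 3. Nr4a1 falls from 7.61 to 8.28 CPM in the Ctrl libraries to 3.29 to 3.85 in the IR libraries, and Dusp1 rises from 36.7 to 40.9 to 48.1 to 53.1. Fosb is at most 0.234 CPM in every Input.

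On day 3 after irradiation of WT tumors, 4 of the 9 members tested were lower and 1 was higher. Over all 16090 genes tested, 17% were called lower and 14.7% higher (edgeR quasi-likelihood test, adjusted p under 0.05). The median change of the 9 was −0.08 on the log2 scale, against 0.01 for all genes. Nr4a1 changed most. Its level was 7.79, 7.88 and 7.61 CPM in WT Ctrl and 3.52, 3.29 and 3.48 in WT IR, so that the groups stood far apart. This is a fall to 0.442 of the Ctrl level (log2 −1.18, SE 0.09, edgeR adjusted p 1.8e-09).

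Ier2 had 21.9, 22.2 and 21.2 CPM in WT Ctrl and 17.5, 13.2 and 14 in WT IR. Its log2 change was −0.55 (SE 0.09, edgeR adjusted p 4.7e-05). Egr1 had 8.03, 7.71 and 8.6 CPM in WT Ctrl and 6.5, 5.7 and 7.16 in WT IR, also without overlap. Its log2 change was −0.33 (SE 0.1, edgeR adjusted p 0.013), but the call rested on single libraries: without WT Ctrl replicate 3 the change was −0.29 (edgeR adjusted p 0.06), and without WT IR replicate 2 it was −0.25 (edgeR adjusted p 0.071). Fos fell slightly, from 71.2, 70.2 and 70.1 CPM to 66.3, 64.5 and 61.3 (log2 −0.14, SE 0.04, edgeR adjusted p 0.0097). Without WT IR replicate 3 the change was −0.11 and was no longer called (edgeR adjusted p 0.069).

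Dusp1 was the only member called higher in WT IR. It rose from 40.5, 40.1 and 40.9 CPM to 51.1, 49.9 and 53.1, or 1.27-fold (log2 0.34, SE 0.04, edgeR adjusted p 3e-06). The other 4 members were not called. The 95% interval of the log2 change was −0.18 to 0.01 for Jun, −0.09 to 0.09 for Junb, −0.04 to 0.28 for Ier3 and −0.04 to 0.11 for Atf3. WT IR replicate 1 moved 2 of these: without it Jun was called lower (−0.14, edgeR adjusted p 0.0042) and Ier3 higher (0.22, edgeR adjusted p 0.0073).

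Markers of neutrophils moved with irradiation. The 6 markers (S100a8, S100a9, Csf3r, Cxcr2, Ly6g, Retnlg) were all called lower in WT IR, and their summed level was 1550 to 1640 CPM in WT Ctrl and 328 to 368 in WT IR. In cKO all 6 were lower too, at 666 to 682 CPM in cKO Ctrl and 294 to 310 in cKO IR. Of the 8 myeloid markers, 6 were lower and 1 higher in WT IR, and 7 were lower and 1 higher in cKO IR. In cKO the higher marker was Lyz2, where the Cre is inserted (0.45, SE 0.02). Over all genes 17% were lower and 14.7% higher in WT IR, and 23.8% were lower and 21.8% higher in cKO IR. Ccr2, a chemokine receptor of monocytes, fell by 0.94 in WT IR (SE 0.06, edgeR adjusted p 2.7e-10) and by 1.06 in cKO IR (SE 0.06, edgeR adjusted p 3.1e-11), and the monocyte marker Ly6c2 fell by 0.65 and 0.19 (SE 0.05 each). Mitochondrial genes took 4.61 to 4.84% of the counts in WT Ctrl and 6.13 to 7.25% in WT IR, and 5.34 to 5.51% in cKO Ctrl and 3.39 to 3.75% in cKO IR. The part of these shifts in the members' changes was not tested. In bulk samples, fewer cells of a type and less RNA per cell cannot be told apart.

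In cKO cells irradiation changed 7 of the 9 members, 5 lower and 2 higher. Over all genes 23.8% were called lower and 21.8% higher, so that this contrast called more genes in general. Nr4a1 fell from 7.64, 8.28 and 7.65 CPM to 3.79, 3.85 and 3.7 (log2 −1.06, SE 0.09, edgeR adjusted p 4.1e-09). Egr1 fell from 11.6, 11.9 and 11 CPM to 6.54, 7.12 and 5.62, or to 0.56 of its level (log2 −0.84, SE 0.1, edgeR adjusted p 4.2e-07). All 6 libraries of each gene were apart by treatment.

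Fos fell from 65.4, 63.6 and 63.4 CPM in cKO Ctrl to 52.2, 50.9 and 51.8 in cKO IR (log2 −0.31, SE 0.04, edgeR adjusted p 1.5e-06). Its partner Jun fell from 157 to 160 CPM to 133 to 141 (−0.21, SE 0.04, edgeR adjusted p 0.00061), and Ier2 from 19.6 to 23.4 CPM to 16.1 to 18.2 (−0.33, SE 0.09, edgeR adjusted p 0.0033). Dusp1 rose from 38.7, 36.7 and 39.8 CPM to 48.5, 48.1 and 48.2 (0.33, SE 0.04, edgeR adjusted p 2.6e-06). Atf3 rose from 219, 221 and 221 CPM to 268, 265 and 264 (0.27, SE 0.04, edgeR adjusted p 5.4e-06). Junb (95% interval −0.1 to 0.09) and Ier3 (−0.09 to 0.22) were not called. All 7 calls held when any 1 library was left out.

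**Figure D2:**
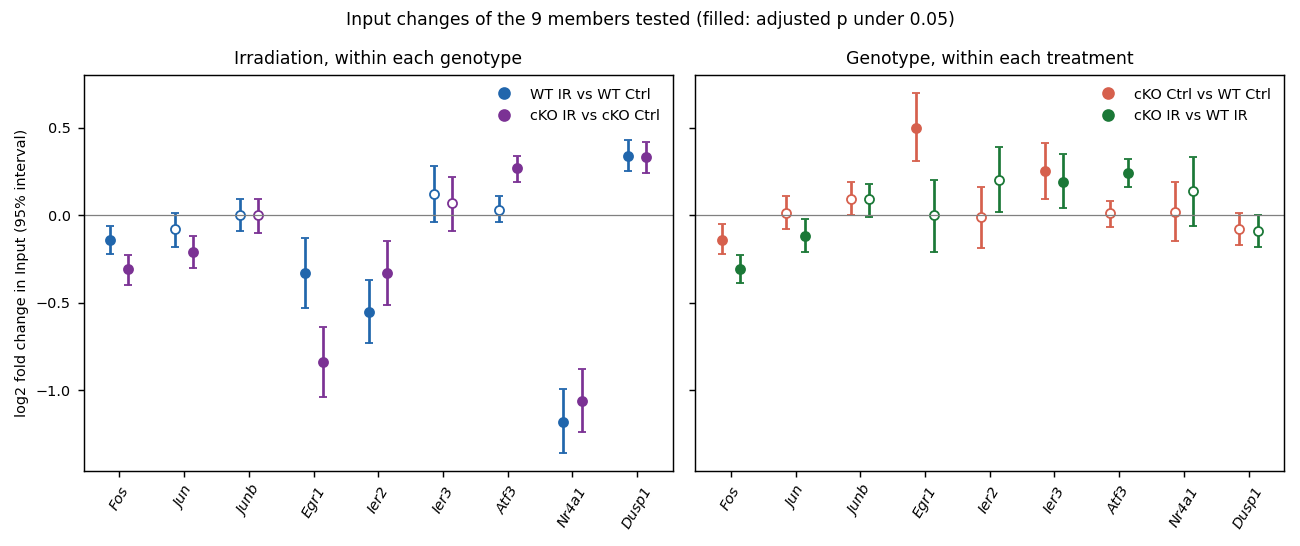
Log2 fold changes of the 9 members tested in the Inputs, with 95% intervals. Filled points have an edgeR adjusted p under 0.05. Irradiation lowers Nr4a1 by more than 1 log2 unit in both genotypes and raises Dusp1 in both, and Atf3 is raised in cKO alone among the calls.

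The difference between the 2 irradiation effects was tested as an interaction, the effect in cKO minus that in WT. It was called for 3 of the 9 members, 2 lower and 1 higher, where 15.2% of all genes were called lower and 15% higher. Egr1 had the largest difference (−0.51, SE 0.14, edgeR adjusted p 0.0074). Its difference between cKO IR and WT IR was 0 (95% interval −0.21 to 0.2), while in Ctrl the cKO libraries stood above WT. Atf3 differed by 0.23 (SE 0.05, edgeR adjusted p 0.0019): it was 216 to 241 CPM in WT IR, 264 to 268 in cKO IR and 218 to 221 in both Ctrl groups. Fos differed by −0.17 (SE 0.06, edgeR adjusted p 0.022). That call was lost without WT Ctrl replicate 3 (−0.17, edgeR adjusted p 0.052), without cKO Ctrl replicate 1 (−0.16, edgeR adjusted p 0.06), without cKO IR replicate 2 (−0.16, edgeR adjusted p 0.055) or without the low-count filter (−0.17, edgeR adjusted p 0.077). For Nr4a1 and Dusp1 the interaction was not called, with 95% intervals of −0.14 to 0.38 and −0.14 to 0.11. For Ier2 it was 0.22 (95% interval −0.04 to 0.47), and it was called without WT IR replicate 1 (0.35, edgeR adjusted p 0.006). For Jun it was −0.13, and it was called without WT IR replicate 2 (−0.18, edgeR adjusted p 0.0078).

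Between the genotypes in Ctrl, 2 were called higher and 1 lower in cKO, where 8.05% of all genes were called higher and 7.61% lower. Egr1 was 1.42-fold higher in cKO Ctrl (11 to 11.9 CPM) than in WT Ctrl (7.71 to 8.6), with no overlap (log2 0.5, SE 0.09, edgeR adjusted p 0.00071). Ier3 was 14.8, 15.1 and 15.3 CPM in WT and 18.9, 17.5 and 17.4 in cKO (0.25, SE 0.08, edgeR adjusted p 0.03), and Fos was lower in cKO by 0.14 (SE 0.04, edgeR adjusted p 0.02). The Ier3 call was lost whichever of the 6 libraries was left out (0.21 to 0.27), and the Fos call was lost without any of 5 of them (−0.14 to −0.13), all but cKO Ctrl replicate 1. The summed neutrophil markers were also lower in cKO Ctrl (666 to 682 CPM against 1550 to 1640). Of these 6 markers 5 were called lower, and Csf3r was higher (0.14, SE 0.04, edgeR adjusted p 0.013). Of the 8 myeloid markers 4 were higher and 1 lower. That lower marker was Lyz2, where the Cre is inserted (−6.1, SE 0.03). The part of the neutrophil and myeloid shifts in these differences was not tested.

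After irradiation 2 members were called higher and 2 lower in cKO than in WT. In this contrast 23.9% of all genes were called higher and 23.8% lower. Fos was 66.3, 64.5 and 61.3 CPM in WT IR and 52.2, 50.9 and 51.8 in cKO IR, which is a fall to 0.807 of the WT level (log2 −0.31, SE 0.04, edgeR adjusted p 1.7e-06). Atf3 was higher in cKO IR by 0.24 (SE 0.04, edgeR adjusted p 2.1e-05). Both held without any 1 library. Ier3 was 13.9, 18 and 17.2 CPM in WT IR and 18.6, 19 and 18.7 in cKO IR (0.19, SE 0.08, edgeR adjusted p 0.042), and without WT IR replicate 1 it was 0.09 (edgeR adjusted p 0.28). Jun was lower by 0.12 (SE 0.05, edgeR adjusted p 0.04), its libraries overlapped (137 to 160 and 133 to 141 CPM), and without WT IR replicate 1 the difference was −0.06 (edgeR adjusted p 0.17). The Ier3 call was also lost without any cKO IR library (0.18 to 0.2), and the Jun call without WT IR replicate 3 or cKO IR replicate 1 or 2 (−0.12 to −0.09). Without WT IR replicate 1 Ier2 was called higher (0.33, edgeR adjusted p 0.00048) and so was Junb (0.14, edgeR adjusted p 0.0012). Ier2 was also called without cKO IR replicate 1 (0.25, edgeR adjusted p 0.048). The heat shock list, 12 chaperone genes, was at 7400 to 7610 CPM in cKO IR and 6170 to 7070 in WT IR, with 6 of the 12 called higher and none lower. Against cKO Ctrl 5 were higher and 1 lower in cKO IR (21.8% and 23.8% of all genes). In WT IR none rose and 2 fell (14.7% and 17%). The interaction was called for 4, all higher (15%), and 3 differed between cKO Ctrl and WT Ctrl, all higher in cKO (8.05%). Of the myeloid markers 3 were higher and 3 lower, with Ly6c2 higher by 0.68 (SE 0.05, edgeR adjusted p 3e-09). Among the lower was Lyz2, where the Cre is inserted (−5.66, SE 0.03). Of the 6 neutrophil markers 5 were lower. Mitochondrial genes took 3.39 to 3.75% of the counts in cKO IR and 6.13 to 7.25% in WT IR, and reads outside genes were 3.95 to 4.14% and 5.7 to 6.55%. The part of these measures in the members' differences and irradiation effects was not tested.

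The remaining immediate early and AP-1 genes were counted in the same fits. Of 29 other immediate early genes tested in the Inputs (of 32 listed), 16 rose and 5 fell in WT IR, and 13 rose and 9 fell in cKO IR. Over all genes 14.7% rose and 17% fell in WT IR, and 21.8% rose and 23.8% fell in cKO IR. The relatives of the members did not all move as the members did. Nr4a2 (log2 0.59, SE 0.08, edgeR adjusted p 7.8e-06) and Nr4a3 (0.61, SE 0.03, edgeR adjusted p 2.6e-12), which encode the other nuclear receptors of the Nr4a family, rose in WT IR while Nr4a1 fell. Egr3 fell by 1.25 in WT IR (SE 0.18, edgeR adjusted p 1.5e-05) and by 1.46 in cKO IR (SE 0.18, edgeR adjusted p 9.1e-07), as Egr1 did. Klf2, a transcription factor of quiescent leukocytes, fell by 0.99 in WT IR (SE 0.08) and by 0.65 in cKO IR (SE 0.08). Between genotypes 6 of the 29 were higher and 3 lower in cKO Ctrl (8.05% and 7.61% of all genes), and 8 were higher and 8 lower in cKO IR (23.9% and 23.8%). Nr4a3 was lower in cKO IR than in WT IR by 0.53 (SE 0.03, edgeR adjusted p 1.6e-11) and Nfkbiz, a nuclear regulator of NF-κB targets, was higher by 0.36 (SE 0.04, edgeR adjusted p 1.2e-07). Of the interactions of these genes, 2 were called higher and 8 lower (15% and 15.2% of all genes). Nr4a3 had the largest (−0.57, SE 0.04, edgeR adjusted p 1.3e-08), and Zfp36, which encodes the AU-rich element binding protein tristetraprolin, followed (−0.42, SE 0.06, edgeR adjusted p 4.4e-05).

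Of 12 further AP-1 genes, 2 rose and 4 fell in WT IR, and 3 rose and 3 fell in cKO IR, against 14.7% and 17% of all genes in WT IR and 21.8% and 23.8% in cKO IR. In cKO Ctrl 3 differed from WT Ctrl, all higher (8.05% of all genes), and in cKO IR 7 were higher and 3 lower than in WT IR (23.9% and 23.8%). The Fos relative Fosl2 rose by 0.19 in WT IR (SE 0.04, edgeR adjusted p 0.00026), fell by 0.18 in cKO IR (SE 0.04, edgeR adjusted p 0.00026) and had an interaction of −0.37 (SE 0.05, edgeR adjusted p 1e-05). Batf, an AP-1 factor of lymphocytes and myeloid cells, exceeded its WT IR level in cKO IR by 0.94 (SE 0.06, edgeR adjusted p 8e-11). Jdp2, a repressor that pairs with Jun, fell by 0.66 in WT IR (SE 0.07, edgeR adjusted p 2.7e-07). Its interaction was 0.51 (SE 0.1, edgeR adjusted p 0.00049), so that this fall did not hold to the same extent in cKO. Of the interactions of the 12 genes, 2 were called higher and 1 lower (15% and 15.2% of all genes).

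Of 22 genes from MAP kinases to SRF and CREB, 5 rose and 5 fell in WT IR, and 2 rose and 11 fell in cKO IR (all genes 14.7% and 17%, then 21.8% and 23.8%). Mapkapk2, a kinase downstream of p38, fell in both (−0.41 and −0.35, SE 0.03 each). In the cKO IR against WT IR contrast 3 were higher and 7 lower (23.9% and 23.8% of all genes), with Braf at −0.56 (SE 0.06, edgeR adjusted p 8.2e-08) and the SRF partner Elk4 at −0.5 (SE 0.06, edgeR adjusted p 1.4e-06). In Ctrl 2 were called, both higher (8.05% of all genes), and the interaction was called for 7, all lower (15.2%). Of 9 other dual-specificity phosphatases, 3 rose and 2 fell in WT IR and 3 rose and 3 fell in cKO IR, with the same shares of all genes. Dusp5, which acts on ERK in the nucleus, rose with Dusp1 in both (0.4, SE 0.06, and 0.28, SE 0.06), and Dusp2, another nuclear MAP kinase phosphatase, fell in both (−0.48, SE 0.12, and −0.41, SE 0.12). Of 9 AU-rich element and Pumilio binding proteins, 1 rose and 3 fell in WT IR, and 5 changed in cKO IR, all lower, where 23.8% of all genes were lower. Zfp36l2 fell by 0.35 (SE 0.03) in WT IR and by 0.7 (SE 0.03) in cKO IR. In cKO IR against WT IR 1 was higher and 6 were lower (23.9% and 23.8% of all genes), and the interaction was called for 5, all lower (15.2%).

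The 5 genes whose Input pattern was most like that of Fos were Tiam1, Dnmt1, Nin, Plekhm1 and Ndst1, with Pearson r of 0.981 to 0.988 over 12 libraries among 11661 genes. These 12 libraries form 4 groups, and an r over them mostly follows the group means. The members were left out of this search, and none of them had an r in that range. Of the members Jun came nearest with r = 0.77, Nr4a1 had 0.61 and Ier2 0.42, and Atf3 (−0.86) and Ier3 (−0.73) ran against Fos.

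The IP libraries were compared with the Inputs in a fit of all 24 libraries, as the log2 ratio of IP to Input per gene. This ratio is relative to the other transcripts of a library. Fosb entered this fit through its IP libraries: 11 of 12 held at least 10 counts, and 2 of the 12 Inputs did. Such a gene had to differ, so it is left out of the counts and its ratio is given with no test. In WT Ctrl 6 of the other 9 members were higher in IP and 2 were lower, where 38.1% of 17373 genes tested were called higher and 37.5% lower. In cKO Ctrl 6 were higher and 3 lower, with 37.8% and 36% of all genes. The group labelled WT IR had 7 higher and 2 lower (37% and 36.5%), and that labelled cKO IR 8 higher and 1 lower (36.9% and 36.9%). Because Lyz2 ran against the labels of the IR IP libraries, both groups were also set against the Inputs of the other genotype, a choice made after seeing the data. The WT IR Inputs then had 7 members higher in IP and 1 lower (37.8% and 37.6% of all genes), and the cKO IR Inputs 6 higher and 2 lower (36.4% and 35.2%).

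Fos had the lowest ratio of these 9 members in WT Ctrl. On the scale shared by the 24 libraries its Input level was 75.6 to 76.7 CPM in WT Ctrl, and its IP level was 9.99, 10.5 and 9.11. In cKO Ctrl the Inputs held 68.6 to 71.2 CPM and the IP libraries 14.3, 15.6 and 12.8. The log2 ratio was −2.94 in WT Ctrl (SE 0.06, edgeR adjusted p 7.8e-30) and −2.29 in cKO Ctrl (SE 0.06, edgeR adjusted p 2.6e-27). Of all genes tested, 5.74% had a ratio as low or lower in WT Ctrl.

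Egr1 had the highest ratio in WT Ctrl among the 9. Its Inputs held 8.33 to 9.27 CPM on this scale in WT Ctrl and its IP libraries 62.7, 61.2 and 62.5. The ratio was 2.83 in WT Ctrl (SE 0.06, edgeR adjusted p 8.5e-29) and 2.24 in cKO Ctrl (SE 0.06, edgeR adjusted p 1.7e-26). Ier2, with IP levels of 142, 145 and 148 CPM over 22.9 to 24 in the Inputs, had 2.62 in WT Ctrl and 2.41 in cKO Ctrl (SE 0.06 each).

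The other members lay between. In WT Ctrl the ratio was 1.71 for Jun (SE 0.04), 1.2 for Ier3 (SE 0.06), 0.96 for Atf3 (SE 0.03) and 0.56 for Junb (SE 0.04), all called. Dusp1 was at −0.21 (SE 0.04, edgeR adjusted p 5e-05), and Nr4a1 at 0.14 was not called (95% interval −0.06 to 0.33). Fosb had 1 to 6 counts in the WT Ctrl Inputs and 6 to 22 in IP, and its fitted ratio of 1.99 (SE 0.81) depends on these few counts. In the group labelled WT IR the Junb ratio of 0.13 was lost as a call without WT IR Input replicate 2 (0.07, edgeR adjusted p 0.07) and with the 50-count filter (0.08). In that labelled cKO IR the Dusp1 ratio of 0.09 was lost without any of 5 single libraries (0.07 to 0.09) and with RLE scaling or DESeq2 (0.08 in each).

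Exchanging the 2 IR IP groups changed the call or direction of 3 ratios, Dusp1 in both groups and Junb in one. For Dusp1 the label gave −0.21 against the WT IR Inputs and 0.09 against the cKO IR Inputs. With the 2 IP groups exchanged, its ratio was 0.00 (SE 0.04, edgeR adjusted p 0.97) against the WT IR Inputs and −0.12 (SE 0.04, edgeR adjusted p 0.011) against the cKO IR Inputs. Junb went from 0.13 to 0.57 (SE 0.04, edgeR adjusted p 3.9e-15) against the WT IR Inputs and from 0.48 to 0.04 (SE 0.04, edgeR adjusted p 0.34) against the cKO IR Inputs. The other 7 members kept their direction and stayed called. Fos was −1.51 and −1.7 by label and −2.01 and −1.2 exchanged, and Egr1 was 3.33 and 3.53 by label and the reverse when exchanged.

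**Figure D3:**
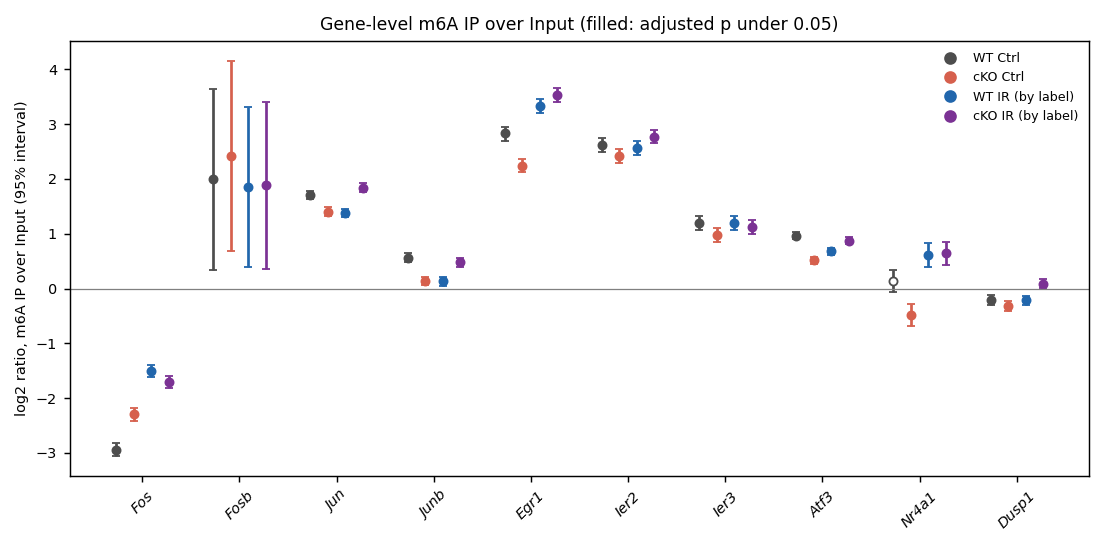
Log2 ratio of m6A IP to Input per gene in each group, with 95% intervals (IR groups by label). Fos lies between −2.94 and −1.51 in all 4 groups, and Egr1 and Ier2 lie between 2.24 and 3.53. The intervals of Fosb, which passed the filter through its IP libraries, are wide.

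In Ctrl the ratio was compared between genotypes. Of the 9 members 5 had a lower ratio in cKO and 1 a higher one, where 12.5% of all genes were called lower and 10.1% higher. The lower ones were Nr4a1 (−0.62, SE 0.14, edgeR adjusted p 0.00087), Egr1 (−0.59, SE 0.08, edgeR adjusted p 1.9e-06), Atf3 (−0.45, SE 0.04, edgeR adjusted p 1.5e-09), Junb (−0.42, SE 0.05, edgeR adjusted p 1.8e-07) and Jun (−0.3, SE 0.05, edgeR adjusted p 5.5e-05). Fos, which had no peak, was the higher one, by 0.65 (SE 0.08, edgeR adjusted p 1.1e-07). Mitochondrial genes took 0.27% of the IP counts in WT Ctrl and 0.43 to 0.5% in cKO Ctrl, and the part of this shift in the ratios was not tested. Ier2 (95% interval −0.38 to −0.04), Ier3 (−0.4 to −0.04) and Dusp1 (−0.23 to 0.01) were not called after adjustment. All 6 calls held without any 1 library. Ier2 was called without cKO Ctrl Input replicate 2 (−0.27, edgeR adjusted p 0.018), and Ier3 without cKO Ctrl IP replicate 1 (−0.26, edgeR adjusted p 0.042). What moved was not the same in each member. Atf3 Inputs were at 235 to 238 CPM in WT Ctrl and 239 to 241 in cKO Ctrl, and its IP level was 477, 461 and 449 CPM in WT and 340, 345 and 345 in cKO. For Egr1 the larger move was in the Inputs, at 8.33 to 9.27 CPM in WT Ctrl and 11.9 to 12.9 in cKO Ctrl. Its IP level was 61.2 to 62.7 CPM in WT Ctrl and 57.7 to 60.5 in cKO Ctrl.

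The change of the ratio with irradiation was averaged over the genotypes, a value that stays the same if the 2 IR IP groups are exchanged. Of the 9 members 5 were called higher and none lower, where 25.3% of all genes were called higher and 23.1% lower. None of the 9 was lower at an unadjusted p under 0.05 in edgeR, nor called lower by DESeq2. Fos rose by 1.01 (SE 0.06, edgeR adjusted p 1.4e-16), Egr1 by 0.9 (SE 0.06, edgeR adjusted p 5e-14) and Nr4a1 by 0.8 (SE 0.1, edgeR adjusted p 3.7e-08). Dusp1 rose by 0.2 (SE 0.04, edgeR adjusted p 0.00011), and Ier2 by 0.16 (SE 0.06, edgeR adjusted p 0.032). The Ier2 call was lost without any of 5 single libraries (0.12 to 0.15): WT IR Input replicate 2 or 3, cKO Ctrl Input replicate 3, cKO IR Input replicate 1, or replicate 2 of the IP group labelled WT IR. Jun, Junb, Ier3 and Atf3 were between −0.04 and 0.07 and were not called, with WT IR Input replicate 1 deciding this for Jun (0.09 without it, edgeR adjusted p 0.023) and Atf3 (0.06, edgeR adjusted p 0.031).

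For Fos, Egr1 and Nr4a1 the Input level fell with irradiation, and the IP level did not follow it in the same way. By label, Fos IP was 23 to 24.8 CPM for WT IR and 16.2 to 17.8 for cKO IR, above all 6 Ctrl IP libraries (9.11 to 15.6). Egr1 IP was 68.6 to 81.1 CPM in the 6 IR libraries and 57.7 to 62.7 in the 6 Ctrl libraries, also without overlap. Nr4a1 IP was 4.93 to 6.65 CPM in the IR libraries, overlapping cKO Ctrl (5.67 to 6.63) and below WT Ctrl (8.06 to 10.3). The neutrophil markers named above fell over the same comparison in the Inputs. Mitochondrial genes took 0.27% of the IP counts in WT Ctrl and 0.43 to 0.5% in cKO Ctrl. They took 0.92 to 1.1% in the IR IP group labelled WT and 0.45 to 0.47% in that labelled cKO. Fos had no peak in any IP library, and a change of its ratio does not by itself show a change of m6A. The part of the neutrophil and mitochondrial shifts in these ratios was not tested.

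**Figure D4:**
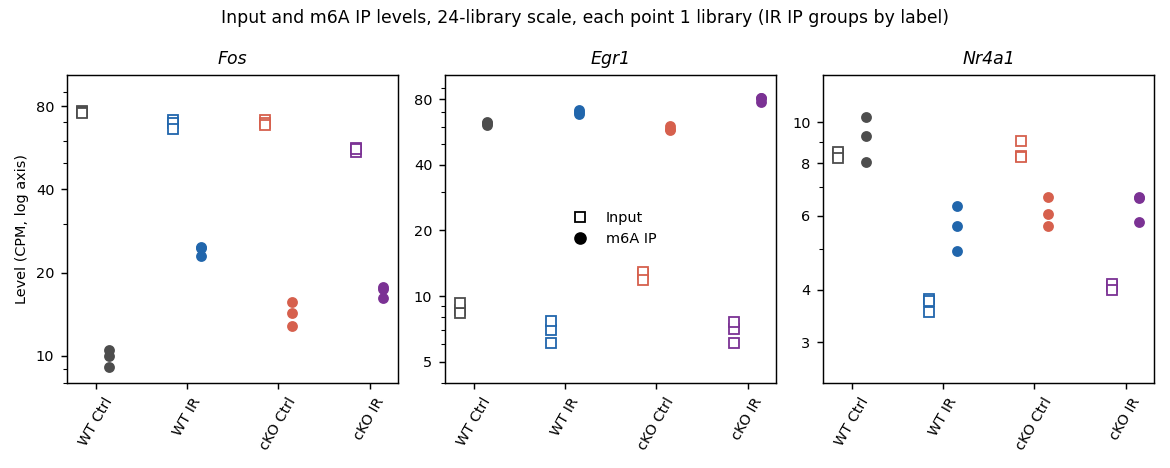
Input (open squares) and m6A IP (filled circles) levels of Fos, Egr1 and Nr4a1 in CPM on the 24-library scale, log axis, 1 point a library (IR IP groups by label). Fos IP lies under Fos Input in every group, and Egr1 IP lies above Egr1 Input in every group. Nr4a1 IP exceeds its Input in the IR groups alone without overlap.

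The genotype order of the IP levels of several members was opposite in the IR libraries by label, as it was for Lyz2. Jun IP was 552 to 558 CPM in WT Ctrl and 449 to 470 in cKO Ctrl, while the IR groups by label held 396 to 433 (WT) and 528 to 531 (cKO). Junb (355 to 370, 281 to 295, 262 to 273 and 357 to 369 CPM in the same order) and Atf3 (449 to 477, 340 to 345, 385 to 389 and 518 to 532) had the same orders. Fos went the other way in both (9.11 to 10.5, 12.8 to 15.6, 23 to 24.8 and 16.2 to 17.8). Lyz2 in these IR IP libraries also ran against the IR Inputs of the same label, as given above. Whether the orders of the members come from the genotype or from the labels was not tested, and no genotype effect is read from them.

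The authors called peaks in each IP library with MACS2, and 159 peaks over the 12 libraries overlapped 7 of the 10 members on their strand. Of the members 6 (Jun, Junb, Egr1, Ier2, Ier3, Atf3) had a consensus peak, one found in all 3 libraries of a group, in each of the 4 groups. The share of all 17373 genes with a consensus peak was 27.7% in WT Ctrl, 25.8% in cKO Ctrl, and for the IR groups by label 23.3% (WT) and 20.8% (cKO). Fos, Fosb and Dusp1 had no peak in any library. For Fosb, with at most 48 IP counts, a peak was not detectable at this depth, whereas Fos had 722 to 1993 IP counts and Dusp1 2614 to 5157. Nr4a1 had 1 peak, in replicate 1 of the group labelled WT IR, with a fold enrichment of 3.9 and its summit at 101274211, 3 bases past the window shown above.

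Egr1 reached the highest peaks, with the authors' fold enrichment at 4.48 to 9.87 in the Ctrl libraries and 4.93 to 14.91 in the IR libraries. Together they covered 2652 to 3081 bases in each library, and summits lay in the 5′ UTR, the coding sequence and the 3′ UTR. Ier2 had 1 peak in each library, of 1494 to 1510 bases on a transcript of 1522, so that it covered nearly the whole mRNA. Its fold was 4.62 to 6.45, and its summit fell on 84662604 to 84662606 in all 12 libraries, in the coding sequence. Ier3 also had 1 peak in each library, with the summit 9 bases past the stop codon at the median (fold 2.73 to 4.08).

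Jun, Junb and Atf3 had several weaker peaks. Jun had 2 to 4 peaks with folds of 1.6 to 3.27. In WT Ctrl the 2 peaks covered 2386 to 2476 bases, and in cKO Ctrl the 4 peaks covered 1664 to 1835. Summits in its 5′ UTR were present in all 3 cKO Ctrl libraries and in none of WT Ctrl, where 1 long peak reached over the same stretch. In the IR groups by label Jun had 2 to 4 peaks. Junb had a summit in the 5′ UTR in all 12 libraries and 1 in the coding sequence in 10, with folds of 1.25 to 1.63. Atf3 had 3 sites in all 12 libraries, 2 in the coding sequence and 1 in the 3′ UTR (1.23 to 1.87), and another in an intron of its main transcript in 2 libraries of WT Ctrl (2.43 and 3.07). The folds belong to the authors' calls, and no test compared them between groups.

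**Figure D5:**
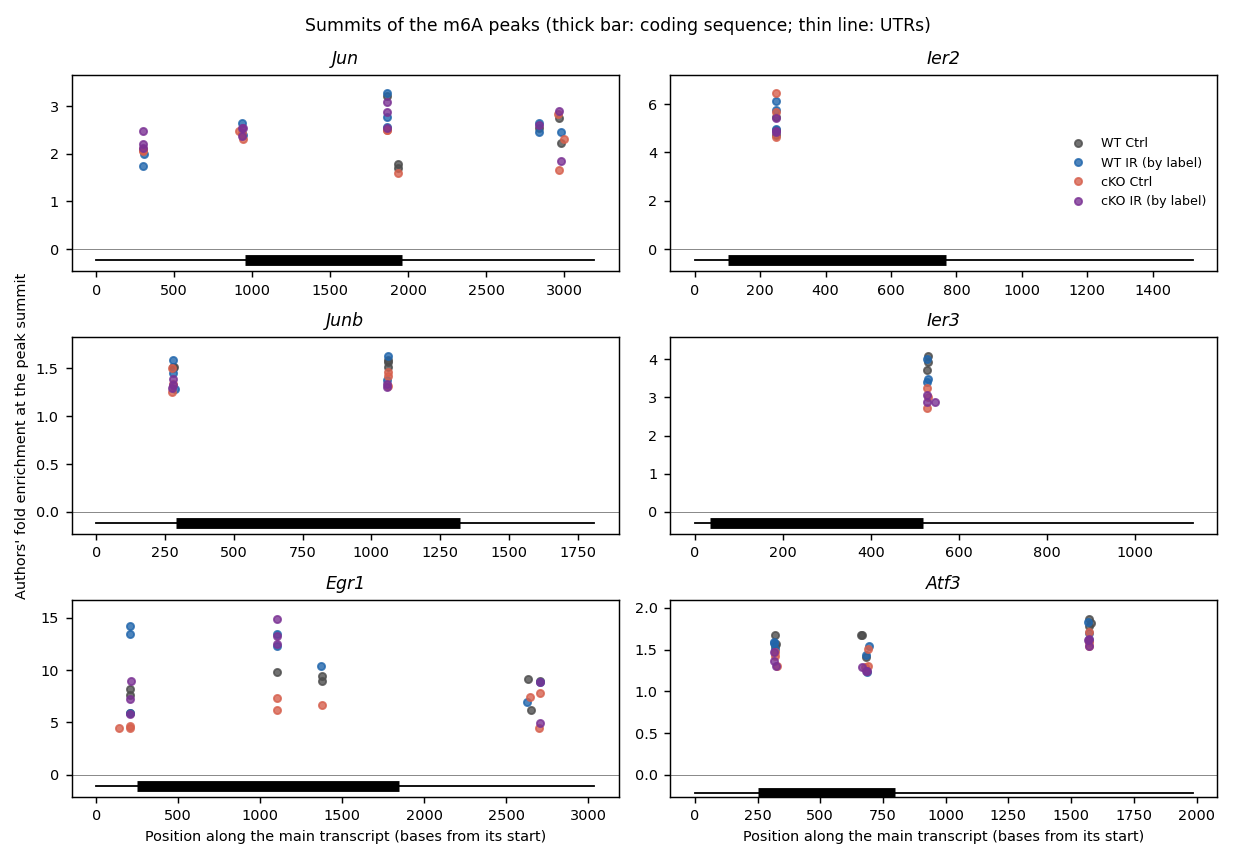
Peak summits of 6 members along their main transcripts (x, bases from the transcript start) against the authors' fold enrichment (y, linear, a ratio), 1 point a peak, by group (IR by label). The thick bar is the coding sequence. Ier2 and Ier3 have 1 summit site in all 12 libraries, and Jun, Egr1 and Atf3 have several. The 2 intronic summits of Atf3 are not drawn.

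Of the 159 summits, 71 lay in coding sequence, 46 in the 3′ UTR, 40 in the 5′ UTR and 2 in an intron of the main transcripts. These numbers count the same sites again in each library, with 18 sites in all. No share over all genes is given for them. In WT Ctrl, Egr1 and Ier2 had the highest ratios of the 9 members, and Fos and Dusp1, with ratios under 0, had no peak. Both measures come from the same IP reads, so that this is a description of 1 signal.

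Where the genes lie in GRCm38 is given from the GENCODE vM21 annotation. Fos (ENSMUSG00000021250.13) is on chromosome 12, positions 85473890 to 85477273, plus strand. Fosb (ENSMUSG00000003545.3) is on chromosome 7, 19302696 to 19310051, minus strand. Egr1 (ENSMUSG00000038418.7) is on chromosome 18, 34859823 to 34864984, plus strand. Jun (ENSMUSG00000052684.4) is on chromosome 4, 95049034 to 95052222, minus strand, as 1 exon, and Junb (ENSMUSG00000052837.6) on chromosome 8, 84974484 to 84978718, minus strand. Ier2 (ENSMUSG00000053560.4) is on chromosome 8, 84661331 to 84662852, minus strand, as 1 exon, and Ier3 (ENSMUSG00000003541.6) on chromosome 17, 35821684 to 35822923, plus strand. Atf3 (ENSMUSG00000026628.13) is on chromosome 1, 191170296 to 191218039, minus strand. Nr4a1 (ENSMUSG00000023034.7) is on chromosome 15, 101254269 to 101274795, plus strand, and Dusp1 (ENSMUSG00000024190.6) on chromosome 17, 26505590 to 26562128, minus strand. Jun, Junb, Atf3 and Dusp1 overlap genes on the opposite strand, and the alignment was made with strand.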

How the data were processed

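MeRIP-seq Inputs and m6A IP libraries of CD11b+ cells (8 groups of 3, by the labels) were used. According to the methods and processing notes, Trimmomatic 0.39 was used for trimming, HISAT for alignment (mm10, GENCODE vM19) and HTSeq for counting by the authors. They deposited raw counts per gene, and the summary lines that name no gene (reads outside genes were 3.95 to 6.55% of Input and 2.86 to 3.6% of IP reads) were left out. The deposited MACS2 peak lists, called per library, give fold enrichment as a ratio, −log10 p and q values, and a score. Which Input served as control is not given in the sources used here.

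Counts were tested with edgeR 4.0.16 in R 4.3.3 (quasi-likelihood, TMM, at least 10 counts in at least 3 libraries, Benjamini-Hochberg adjusted p under 0.05), in 1 fit of 12 Inputs and 1 of 24 libraries. CPM are relative to TMM-scaled totals, with separate scaling for the 12 Inputs and the 24 libraries. Common biological variation was 5.57% and 4.98%. Among the members, counting error was largest for Fosb (1 to 16 counts per Input) and next for Nr4a1 (219 to 698). Alternatives were DESeq2 1.42.0, RLE scaling, no filter or 50 counts, the replicate number as a block, smaller fits, leaving out each library and, added after seeing the data, exchanging the 2 IR IP groups. Of 54446 identifiers 54409 matched GENCODE vM21. The members and lists were chosen with earlier results of these data known. Other genes named were the 2 called with the largest rise or fall of a list in a contrast, a selection of which is given, and the 5 most like Fos. The main transcript is the principal coding one of shortest genomic span for members, and of longest coding sequence for other genes. Summits within 100 bases formed 1 site.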

Additional observations from a re-analysis of the deposited data

Results flagged for a closer look

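In the Inputs 3 members had an irradiation effect that differed between the genotypes by the interaction test: Fos (−0.17), Egr1 (−0.51) and Atf3 (0.23), as log2 values of cKO minus WT. The ratio of IP to Input differed between cKO Ctrl and WT Ctrl for Fos (0.65), Jun (−0.3), Junb (−0.42), Egr1 (−0.59), Atf3 (−0.45) and Nr4a1 (−0.62). The same ratio differed between IR and Ctrl, averaged over the genotypes, for Fos (1.01), Egr1 (0.9), Nr4a1 (0.8), Dusp1 (0.2) and Ier2 (0.16). The last of these rests on single libraries, as does the Fos interaction.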

How the results depend on the processing

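Over the 11 comparisons, the numbers of members called (Fosb included in those of IP over Input) stayed within 1.5 times those reported under RLE scaling, DESeq2, no filter and the 50-count filter. For cKO Ctrl against WT Ctrl (3 called) leaving out 1 library gave 1 to 2. For cKO IR against WT IR (4 called) it gave 2 to 4, and a fit of only the 6 Inputs of the contrast gave 2. With the authors' fold enrichment at 4 or more, 2 members had a consensus peak in each of the 4 groups, against 6. With the 2 IR IP groups exchanged, an alternative chosen after seeing the data, the Dusp1 ratio turned to 0.00 against the WT IR Inputs and to −0.12 against the cKO IR Inputs. The other directions that turned were all of members not called. Junb was 0.01 in WT IR against WT Ctrl with the 50-count filter, 0.00 in cKO IR against cKO Ctrl with only 6 Inputs, and 0.00 in the interaction with no filter. Atf3 in cKO Ctrl against WT Ctrl was 0.00 with RLE, DESeq2 or the 50-count filter, and Egr1 in cKO IR against WT IR 0.01 with no filter. Leaving out 1 library moved Junb from −0.06 to 0.06 and Atf3 from −0.02 to 0.06 in WT IR, and Junb from −0.02 to 0.01 in cKO IR. In cKO Ctrl against WT Ctrl it moved Atf3 from 0.00 to 0.01, Ier2 from −0.07 to 0.05, Jun from −0.01 to 0.04 and Nr4a1 from −0.02 to 0.04. It moved Egr1 from −0.09 to 0.08 in cKO IR against WT IR, and the interaction of Junb from −0.06 to 0.05, of Ier3 from −0.16 to 0.02 and of Dusp1 from −0.05 to 0.01. The Fosb ratio moved from −0.31 to 1.08 (cKO minus WT) and from −0.7 to 0.54 (IR minus Ctrl). The cause was not tested. Over all genes, cKO Ctrl against WT Ctrl called 2520, and 3870 with only 6 Inputs. With a replicate block the counts were 3 in cKO IR against WT IR (Jun −0.11, not called) and 9 in the group labelled cKO IR (Dusp1 0.09, not called), and no other member's call changed. The numbers do not pair the samples: same-numbered Inputs correlated at −0.4 to 0.29, with 2 of 18 pairs over 0.1. Depth limits Fosb most, with 1 to 16 counts per Input.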
